A study of Mus musculus with 35 samples.

Results

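Nuclear genes of oxidative phosphorylation were followed across 3 CD8 T cell subsets of mice that differ at Dot1L. The set comprised the protein-coding genes whose symbol begins with Nduf, Uqcr, Atp5 or Cox4 to Cox8, together with Sdha, Sdhb, Sdhc, Sdhd and Cyc1. These names picked out 94 of the 52636 genes in the count table, and 62 of the 94 had enough counts to be tested. The choice used names only and no expression value.

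The libraries were RNA-seq of sorted CD8 T cells from C57BL/6 mice. Their genotypes were Lcre+/-;Dot1Lfl/fl (called KO), Lcre+/-;Dot1Lfl/wt (Het) and Lcre+/-;Dot1Lwt/wt (WT). All 3 carry the Cre transgene written as Lcre, so the WT cells are Cre-positive controls. The labels do not spell out the promoter that drives it or the age of the mice. Each genotype was sorted as CD8 single-positive thymocytes (thymus), as CD44-CD62L+ spleen cells (naive) and as CD44+CD62L+ spleen cells (memory). Every group had 4 libraries except WT thymus, which had 3, giving 35 libraries in 9 groups. The labels do not say whether the replicates are separate animals, so the p-values measure only the spread between these samples.

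Oxidative phosphorylation is carried out in the inner mitochondrial membrane. Complexes I to IV pass electrons from NADH and succinate to oxygen and, except for complex II, pump protons, and ATP synthase uses the proton gradient to make ATP. Most subunits are encoded in the nucleus and imported, while a few are encoded in mitochondrial DNA. Quiescent naive T cells have low energy demand, dividing cells build more respiratory machinery, and memory CD8 T cells are known for relying on mitochondrial respiration. Dot1L is the methyltransferase of lysine 79 of histone H3, a mark of transcribed genes.

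Total counts per library were between 4809509 and 16879636, with a median of 10406516. Levels are given as CPM, counts relative to library size, scaled between libraries by the trimmed mean of M-values (TMM). A gene is said to have risen, fallen or been called when its adjusted p was under 0.05 in edgeR's quasi-likelihood test with Benjamini-Hochberg adjustment over all 10296 genes tested. Dot1l itself, counted over the whole gene, averaged 77.3 ± 1.68 CPM in KO thymus (SD, n = 4), 69.2 ± 4.41 CPM in Het thymus (SD, n = 4) and 67.0 ± 5.20 CPM in WT thymus (SD, n = 3). The KO thymus mean was thus not below the others, but the floxed exons are not named in the labels, so this count does not check the deletion and the genotypes rest on the labels. Summed CPM of 8 CD8 T cell markers lay between 1070 and 1510 CPM in the KO and WT libraries of all 3 subsets, a sum in which Lck has by far the most counts. Some of the 8 fell in KO against WT: Cd247 in all 3 subsets, Cd8b1 in thymus, Trac in naive cells, and Cd8a, Cd8b1 and Trac in memory cells. Summed CPM of 5 memory markers had medians of 593 CPM in KO memory and 402 CPM in WT memory, against 214 CPM in KO naive and 83.8 CPM in WT naive. In sorted bulk samples, fewer cells of a type and less RNA per cell cannot be told apart.

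Promoters of 6 genes are printed because they carry the differences described further on. Atp5b, Atp5g1 and Atp5g3 had the lowest adjusted p between naive and thymic KO cells. Atp5h and Sdhd were called between KO and WT, on means of 91.9 and 31.2 counts per library. Cox7a2l went the other way from most of the set. Each sequence is the 250 bases before the RefSeq transcription start on GRCm38.p6, written 5′ to 3′ on the gene's own strand. Capitals mark matches on either strand to 3 motifs: the NRF1 motif (GCGCA, any 1 base, GCGC), the ETS motif CCGGAAG and the CCAAT box, where the reverse complements read GCGC, any 1 base, TGCGC for the first and CTTCCGG and ATTGG for the others. They lie at chr10:128083057-128083306 (plus strand, Atp5b), chr11:96075632-96075881 (minus, Atp5g1), chr2:73911327-73911576 (minus, Atp5g3), chr11:115419920-115420169 (minus, Atp5h), chr9:50603850-50604099 (minus, Sdhd) and chr17:83514334-83514583 (minus, Cox7a2l).
Atp5b: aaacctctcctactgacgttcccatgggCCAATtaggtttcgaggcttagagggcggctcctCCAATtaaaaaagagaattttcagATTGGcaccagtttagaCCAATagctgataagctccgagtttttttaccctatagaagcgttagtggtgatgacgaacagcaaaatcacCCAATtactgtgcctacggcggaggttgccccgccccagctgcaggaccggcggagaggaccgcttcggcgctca
Atp5g1: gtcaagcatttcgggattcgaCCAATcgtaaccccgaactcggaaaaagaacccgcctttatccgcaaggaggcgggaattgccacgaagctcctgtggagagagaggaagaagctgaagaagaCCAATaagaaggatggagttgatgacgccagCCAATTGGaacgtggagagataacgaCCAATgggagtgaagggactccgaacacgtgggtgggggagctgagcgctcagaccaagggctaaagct
Atp5g3: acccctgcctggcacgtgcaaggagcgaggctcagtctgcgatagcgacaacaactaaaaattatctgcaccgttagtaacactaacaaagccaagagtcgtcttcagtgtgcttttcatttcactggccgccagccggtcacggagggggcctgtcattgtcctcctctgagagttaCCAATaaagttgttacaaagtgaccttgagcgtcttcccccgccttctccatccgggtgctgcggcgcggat
Atp5h: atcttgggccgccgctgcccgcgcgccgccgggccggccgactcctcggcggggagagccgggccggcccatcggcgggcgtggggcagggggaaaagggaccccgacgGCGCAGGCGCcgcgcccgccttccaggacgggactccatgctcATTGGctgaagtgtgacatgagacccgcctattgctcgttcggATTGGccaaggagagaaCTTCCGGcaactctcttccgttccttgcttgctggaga
Sdhd: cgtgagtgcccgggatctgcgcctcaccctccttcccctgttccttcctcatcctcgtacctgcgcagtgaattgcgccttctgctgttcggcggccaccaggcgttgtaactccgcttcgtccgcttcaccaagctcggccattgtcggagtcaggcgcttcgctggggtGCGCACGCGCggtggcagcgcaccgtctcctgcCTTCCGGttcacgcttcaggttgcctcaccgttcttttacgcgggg
Cox7a2l: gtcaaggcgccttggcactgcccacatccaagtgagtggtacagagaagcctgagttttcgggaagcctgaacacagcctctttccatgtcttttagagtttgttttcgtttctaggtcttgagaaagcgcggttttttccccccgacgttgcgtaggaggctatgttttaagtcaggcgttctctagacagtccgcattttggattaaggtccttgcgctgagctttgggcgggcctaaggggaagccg

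Atp5b held 5 CCAAT matches in this window. Atp5g1 also held 5, of which 2 on opposite strands overlap by 2 bases, and Atp5g3 held 1. Atp5h held 1 NRF1 match, 1 ETS match and 2 CCAAT matches, and Sdhd held 1 NRF1 and 1 ETS match. None of the 3 motifs was found in the Cox7a2l window. RefSeq windows matched 76 of the 94 genes by symbol or, failing that, by Entrez gene ID. The other 18, among them Ndufs1, Cox4i1 and Cyc1, had no matched window. The NRF1 motif was found in 14 of the 76 (18.4%), against 1144 of 27025 genes (4.23%). ETS matches were in 14 of the 76 (18.4%), against 2115 genes (7.83%), and CCAAT matches were in 34 (44.7%), against 10133 genes (37.5%). Nuclear respiratory factor NRF1 and ETS-family factors are known activators of respiratory genes, but a match is only a run of letters and was not set against binding data.

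The 94 genes were measured very unequally. Atp5b, the catalytic beta subunit of ATP synthase, averaged 10525 counts per library and ranged between 4116 and 18623. Sdha, the flavoprotein of complex II, averaged 3602 counts, and Ndufs1, the largest core subunit of complex I, averaged 2067. At the other end, 38 of the 94 genes averaged under 10 counts per library and 10 never exceeded 3 counts in any library. The untested genes include subunits that every respiring cell uses: Ndufa1 averaged 1.54 counts, Ndufc2 1.17, Cox7a2 1.29, Cox6c 3.40 and Sdhc, a membrane anchor of complex II, 4.74. Mean count and exon length had a Spearman rho of 0.502 across the 94 genes, which share the same libraries and are not independent replicates. The median exon length was 1795 bases for the 62 tested genes and 1062 bases for the 32 others. Because of this, the results below speak of the longer and better counted part of the set.

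**Figure D1:**
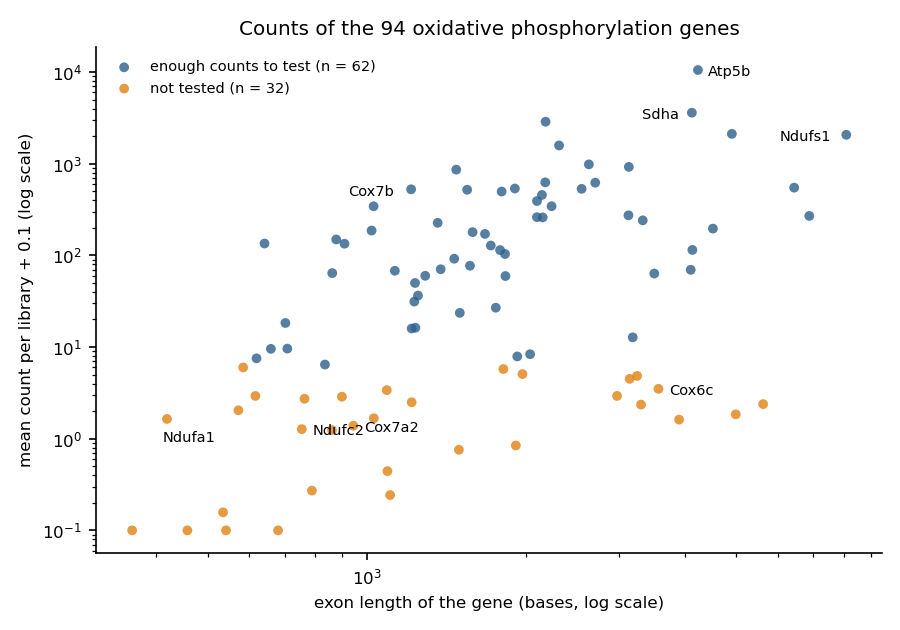
Mean count per library (plus 0.1, log scale) against exon length in bases (log scale) for the 94 genes, with the 62 tested and the 32 not tested in separate colours. Atp5b stands highest at 10525 counts, and 4 genes lie at the floor with a count of 0.

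By complex, all 7 core subunits of complex I were tested, along with 16 of 29 accessory subunits, 5 of 8 Ndufaf assembly factors, 3 of 4 complex II genes, 8 of 9 complex III genes, 9 of 18 complex IV genes and 12 of 16 ATP synthase genes. The remaining 3 genes met the naming rule without being subunits: Cox7a2l, which helps join complexes III and IV into supercomplexes, Atp5s, a protein related to coupling factor B, and Ndufa4l2, which was not tested. Per kilobase of exon, the levels among the highest were 232 CPM per kb for Atp5b, 122 for Atp5g3, 82.4 for Sdha and 55.6 for Cox7a2l. The lowest among tested genes were 0.377 CPM per kb for Ndufv3, 0.379 for Atp5d, 0.381 for Atp5s, 0.722 for Ndufaf8 and 1.13 for Cox8a. These are mean values per length over all libraries. Of the 94 genes, 3 are X-linked: Ndufa1, Ndufb11 and Cox7b.

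Among paralogues, the forms known from most tissues were counted above the tissue-specific ones. Cox4i1, the regulatory subunit IV of complex IV, averaged 520 counts, and its lung-type paralogue Cox4i2 averaged 0.171. The heart and muscle forms Cox6a2 and Cox8b had no count in any library, and neither did Cox7b2 and Cox8c, known from testis. Their widely expressed partners averaged 18.2 counts for Cox6a1, 7.43 for Cox8a and 526 for Cox7b. The other pairs were Cox6b1 at 9.51 and Cox6b2 at 0.143 counts, and Cox7a2 at 1.29 and the muscle form Cox7a1 at 0.0571 counts, beside 861 for Cox7a2l. The 3 genes for the identical c-subunit of the ATP synthase rotor differed in level per length: Atp5g3 had 122 CPM per kb, Atp5g1 40.1 and Atp5g2 9.71.

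Between thymus and spleen, some respiratory genes of KO cells fell in naive cells in each complex, though only 1 of 3 tested in complex II. In KO cells 30 of the 62 genes were called between naive and thymus (48.4%), against 44.1% of all tested genes, so the number called was near the background. Their direction was uneven: 28 fell and 2 rose, while 21.7% of all tested genes fell and 22.4% rose. The median log2 fold change of the 62 genes was -0.35, beside 0.05 over all tested genes. In WT cells 13 of the 62 were called (21.0%), below the 32.2% of all tested genes. Of these 11 fell and 2 rose, beside 16.9% and 15.3% of all tested genes, and the median was -0.07, beside 0.03. Summed over the set, levels were 2971 ± 128 CPM in KO naive against 3951 ± 48.6 CPM in KO thymus (SD, n = 4 each), and 3133 ± 79.8 CPM in WT naive (SD, n = 4) against 3531 ± 161 CPM in WT thymus (SD, n = 3).

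ATP synthase genes summed to 1439 ± 94.5 CPM in KO naive cells against 2212 ± 32.7 CPM in KO thymus (SD, n = 4 each). Of the 12 tested genes, 8 fell in KO naive cells and 5 fell in WT naive cells, each set against thymus. Atp5b had 899, 805, 890 and 849 CPM in KO naive libraries, against 1270, 1300, 1280 and 1230 CPM in KO thymus libraries. In WT it had 891, 852, 910 and 926 CPM in naive libraries, against 1080, 996 and 1090 CPM in thymus libraries. In both genotypes every naive library lay below every thymus library. The log2 fold change was -0.56 ± 0.06 (SE) in KO with an adjusted p of 1.37e-10, and -0.23 ± 0.06 in WT with an adjusted p of 0.0034.

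Atp5g3, a c-ring gene, had 224, 173, 230 and 240 CPM in KO naive libraries, against 394, 376, 390 and 414 CPM in KO thymus libraries. It had 213, 201, 233 and 260 CPM in WT naive libraries, against 321, 322 and 373 CPM in WT thymus libraries. The groups did not overlap in either genotype, and the gene had the lowest adjusted p of the 62 in KO and in WT. Its log2 fold change was -0.86 ± 0.09 in KO (adjusted p 9.18e-11) and -0.58 ± 0.09 in WT (adjusted p 3.69e-06). Atp5g1, its paralogue, had 161, 118, 137 and 165 CPM in KO naive libraries, against 227, 290, 271 and 256 CPM in KO thymus libraries. In WT it had 196, 156, 148 and 194 CPM in naive libraries, against 246, 221 and 262 CPM in thymus libraries. Here too the naive libraries all lay lower, with log2 fold changes of -0.84 ± 0.09 in KO (adjusted p 2.84e-10) and -0.49 ± 0.10 in WT (adjusted p 8.59e-05). Among the 6 promoters printed above, those of both c-ring genes and of Atp5b are the ones with CCAAT matches and no NRF1 or ETS match. Atp5h, with NRF1, ETS and CCAAT matches, also fell in KO naive cells. Ndufa6, with a CCAAT match alone, rose in both genotypes. The 6 promoters were picked for the changes of their genes, and motif matches were not set against the calls of the 62 genes. A link between motifs and these changes was not tested.

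**Figure D2:**
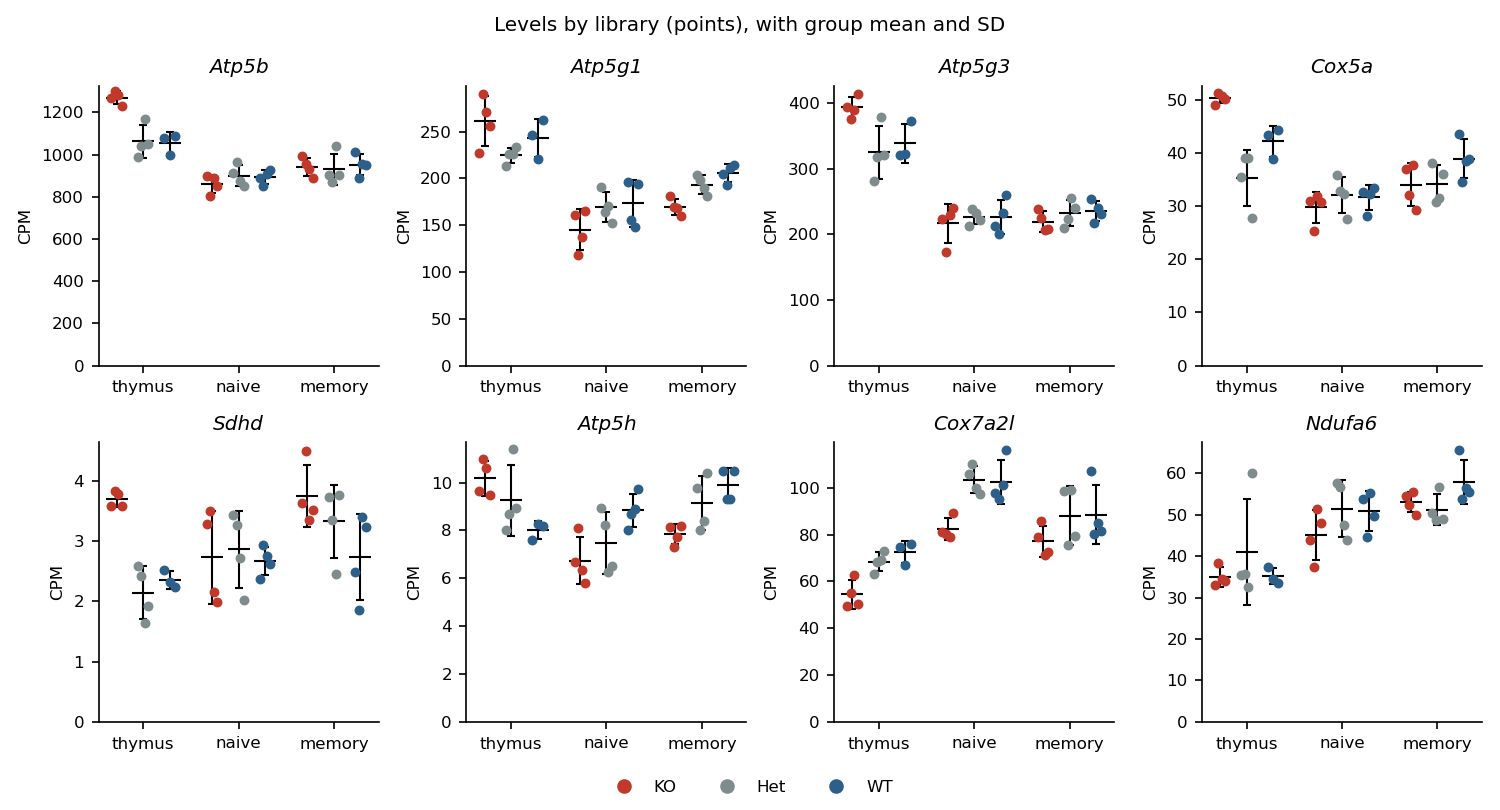
CPM of 8 genes in each library (points), with group mean and SD, for KO, Het and WT within thymus, naive and memory. Atp5b, Atp5g1, Atp5g3 and Cox5a stand highest in thymus, with KO thymus of Atp5b between 1230 and 1300 CPM, while Cox7a2l and Ndufa6 stand lower in thymus than in naive cells in most libraries.

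In complex IV 5 of 9 tested genes fell in KO naive cells, set against KO thymus. Cox5a, a matrix-side subunit of the oxidase, had 30.9, 25.4, 32.0 and 30.8 CPM in KO naive libraries, against 49.0, 51.3, 50.7 and 50.2 CPM in KO thymus libraries. In WT the values were 32.7, 28.2, 32.3 and 33.4 CPM in naive libraries, against 43.3, 38.8 and 44.4 CPM in thymus libraries. The groups were apart in both genotypes, with log2 fold changes of -0.75 ± 0.10 in KO (adjusted p 7.01e-08) and -0.41 ± 0.11 in WT (adjusted p 0.00389). Cox5a shares exon bases with Gm26631 on the opposite strand, and the strand setting of the counting is not given in the sources used here. Cox4i1 was not called, at -0.23 ± 0.11 in KO and -0.09 ± 0.11 in WT.

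In complex I the calls covered a part of the subunits. In KO cells 4 of the 7 core subunits fell in naive cells, among them Ndufv1, which binds NADH, at -0.47 ± 0.07, and Ndufv2, an iron-sulfur subunit, at -0.60 ± 0.11. Of the 16 tested accessory subunits 6 fell, with Ndufb9 at -0.57 ± 0.10. Ndufb6, picked out here after its value was seen, had the lowest log2 fold change of the set at -1.11 ± 0.39, on 9.46 counts per library, and was not called with no filter on low counts (adjusted p 0.0615) or without KO thymus replicate 2 or 4 or KO naive replicate 1 (0.0601 to 0.0712). Ndufs1 was not called, at -0.10 ± 0.06 in KO and -0.05 ± 0.07 in WT. Ndufa10 was also not called, at -0.07 ± 0.11 in KO and 0.03 ± 0.12 in WT. Among the 5 tested assembly factors, only Ndufaf6 fell in KO.

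In complex II 1 of 3 tested genes fell in both genotypes. It was Sdhb, the iron-sulfur subunit. Sdhb had 27.4, 31.7, 27.2 and 29.6 CPM in KO naive libraries, against 37.0, 43.4, 33.6 and 33.8 CPM in KO thymus libraries. In WT it had 26.8, 25.9, 28.7 and 32.6 CPM in naive libraries, against 38.6, 39.8 and 38.7 CPM in thymus libraries. Naive libraries lay below thymus libraries throughout, with log2 fold changes of -0.35 ± 0.10 in KO (adjusted p 0.00491) and -0.45 ± 0.11 in WT (adjusted p 0.0016). Sdha, its partner in the complex, gave 0.03 ± 0.05 in KO and 0.11 ± 0.06 in WT and was not called. In complex III 3 of 8 tested genes fell in KO: Cyc1, the cytochrome c1 gene, at -0.34 ± 0.12, and Uqcr11 and Uqcrc2. The call of Cyc1 was lost without KO naive replicate 4 (adjusted p 0.0503). Uqcrc2 was not called with no filter on low counts (0.0516), under mean log centring (0.0933) or without some single libraries (up to 0.0955). Uqcrc1, a core protein, was not called, at -0.03 ± 0.14 in KO and -0.16 ± 0.15 in WT.

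Cox7a2l and Ndufa6 rose in naive cells of both genotypes and were the only genes of the 62 to do so in either. Cox7a2l had 81.2, 80.3, 78.8 and 89.3 CPM in KO naive libraries, against 49.4, 54.9, 62.9 and 50.4 CPM in KO thymus libraries. It had 97.9, 95.2, 101 and 116 CPM in WT naive libraries, against 74.7, 67.1 and 75.9 CPM in WT thymus libraries. All naive libraries stood above the thymus libraries of their genotype, and the log2 fold changes were 0.60 ± 0.09 in KO (adjusted p 1.04e-06) and 0.50 ± 0.10 in WT (adjusted p 0.000105). Ndufa6, an accessory subunit of complex I, had 44.0, 37.3, 51.4 and 48.0 CPM in KO naive libraries, against 33.0, 38.3, 34.5 and 33.9 CPM in KO thymus libraries. In WT it had 53.9, 44.7, 55.2 and 49.7 CPM in naive libraries, against 37.4, 34.6 and 33.5 CPM in thymus libraries. The KO groups overlapped in 1 library and the WT groups did not, with log2 fold changes of 0.37 ± 0.12 in KO (adjusted p 0.0144) and 0.54 ± 0.14 in WT (adjusted p 0.00215). The KO call of Ndufa6 was lost without any 1 of KO thymus replicates 1 and 4 and KO naive replicates 3 and 4 (0.0503 to 0.0822).

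**Figure D3:**
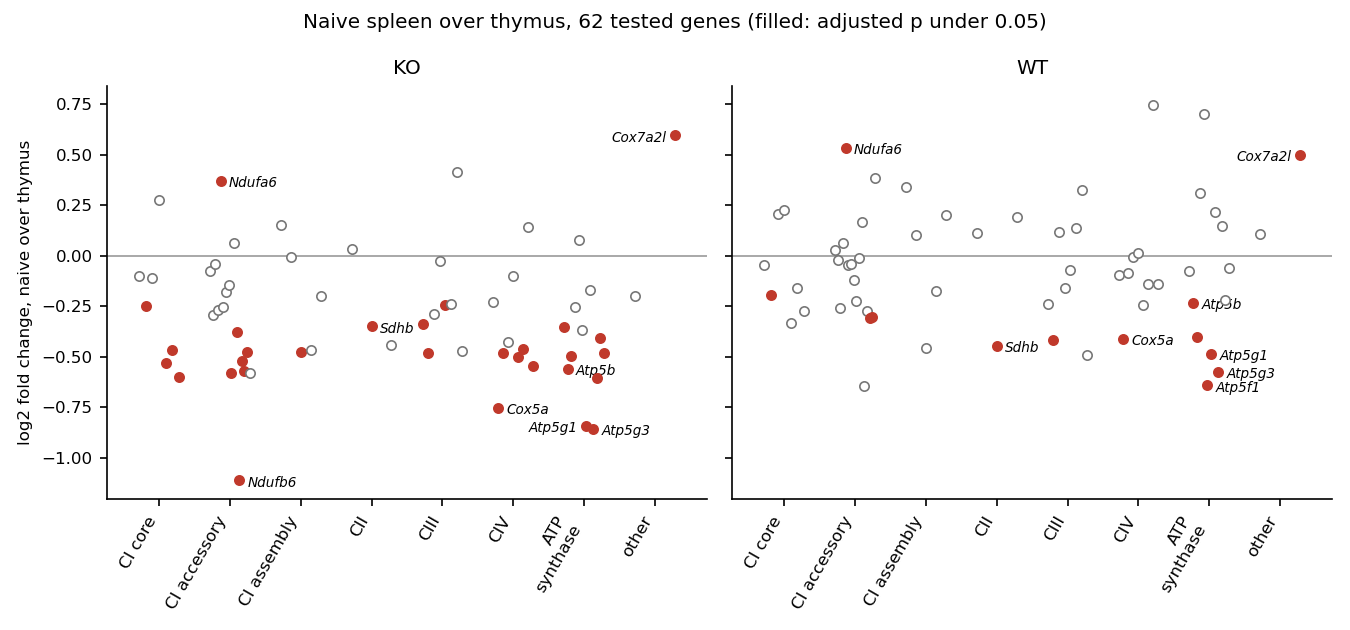
Log2 fold change of naive over thymus for the 62 tested genes by complex, in KO (left) and WT (right), with genes called at an adjusted p under 0.05 filled. In KO 28 filled points lie below 0 and 2 above, and in WT 11 lie below and 2 above.

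Other mitochondrial lists differed among themselves, and their counts stand beside the same shares of all tested genes (21.7% lower and 22.4% higher in KO, 16.9% lower and 15.3% higher in WT). In the tricarboxylic acid cycle and pyruvate dehydrogenase list, 8 of 17 tested genes fell and 0 rose in KO naive cells, and 5 fell and 1 rose in WT naive cells. Of 20 tested genes for mitochondrial import and membrane carriers, 14 fell and 1 rose in KO, and 6 fell and 1 rose in WT. Calls went both ways among 22 tested assembly factors outside the naming rule (3 fell and 2 rose in KO, 0 fell and 1 rose in WT), 13 genes for cytochrome c and coenzyme Q (3 fell and 2 rose in KO, 1 fell and 1 rose in WT) and 16 regulators of mitochondrial biogenesis (3 fell and 3 rose in KO, 2 fell and 3 rose in WT). Slc25a5, which exchanges ADP and ATP across the inner membrane, fell by 0.94 on the log2 scale in KO and by 0.79 in WT. The 7 tested subunits encoded in mitochondrial DNA gave 0 calls in edgeR in either genotype, with 0 and 1 at an unadjusted p under 0.05 in KO and WT and 0 and 1 calls in DESeq2. All 13 such genes together summed to only 23.6 to 92.0 CPM over all naive libraries. Over all 35 libraries mt-Co1 averaged 101 counts, while mt-Co2, mt-Co3 and mt-Atp6 averaged 0.0286 each. The 0 calls rest on these counts and do not show that the subunits were unchanged. Proliferation genes moved with this comparison: all 11 tested fell in both genotypes, and their summed CPM had medians of 432 in KO naive against 2850 in KO thymus, and of 398 in WT naive against 1720 in WT thymus. B cell markers also moved, with 7 of 11 tested higher in KO naive and 6 in WT naive, at summed medians of 222 CPM in KO naive against 113 CPM in KO thymus and 217 CPM in WT naive against 92.3 CPM in WT thymus. Of 5 tested erythroid markers 4 were higher in KO naive, and in DESeq2 4 were also higher in WT naive. Their summed medians in naive against thymus were 32.6 against 3.63 CPM in KO, 40.1 against 3.41 CPM in Het and 21.2 against 3.33 CPM in WT. The part of these differences in the respiratory gene results was not tested.

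Most of the set stood slightly higher in memory than in naive cells, with few genes called. In KO cells 4 of the 62 genes were called between memory and naive, against 17.3% of all tested genes, and in WT cells 5 were called, against 15.1%. All of these calls were higher in memory cells, where 8.69% of all tested genes rose and 8.61% fell in KO and 7.68% rose and 7.38% fell in WT. The median log2 fold change of the 62 genes was 0.18 in KO and 0.11 in WT, with 52 and 50 genes above 0, beside 0.01 and 0.00 over all tested genes. The number called was lower than the background in both genotypes. It also rested on single libraries: in KO, 1 gene was called without KO naive replicate 2 or KO memory replicate 3 and 2 without KO naive replicate 3 or KO memory replicates 1 or 2, and in WT, 1 was called without WT memory replicate 3 and 2 without WT naive replicate 4 or WT memory replicate 1.

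Cox4i1 was called in both genotypes. It had 50, 49.7, 52.8 and 47.8 CPM in KO memory libraries, against 39.8, 31.8, 46.1 and 38.8 CPM in KO naive libraries. In WT it had 63.1, 54.3, 58.8 and 62.6 CPM in memory libraries, against 53.7, 43.8, 42.9 and 44.5 CPM in naive libraries. Memory libraries stood above naive libraries in both, with log2 fold changes of 0.36 ± 0.10 in KO (adjusted p 0.0124) and 0.38 ± 0.11 in WT (adjusted p 0.0089). Cox4i1 shares exon bases with Emc8 on the other strand. In KO the other genes that rose were all of complex I: Ndufv2 by 0.39 ± 0.11, Ndufb9 by 0.30 ± 0.10 and Ndufa3, an accessory subunit, by 0.39 ± 0.14. In WT they were Atp5f1, in the stator of ATP synthase, by 0.63 ± 0.20, Atp5c1, its central stalk gamma subunit, by 0.32 ± 0.11, the assembly factor Ndufaf6 by 0.57 ± 0.20 and Cox5a by 0.30 ± 0.11. Atp5b itself was at 941 ± 43.7 CPM in KO memory against 861 ± 43.3 CPM in KO naive (SD, n = 4 each) and was not called. Proliferation genes rose as well, 7 of 11 tested in KO and 2 in WT, and their part was not tested.

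The study set Dot1L KO against WT cells. In thymus, KO cells had higher levels of a few respiratory genes. KO and WT thymus differed in 4 of the 62 genes (6.45%), well under the 18.6% of all tested genes: Atp5b, Ndufab1 and Sdhd rose and Cox7a2l fell. Among all tested genes 11.9% rose and 6.77% fell. The 62 genes had a median log2 fold change of 0.11, beside 0.02 over all tested genes, with 46 above 0. All 12 tested ATP synthase genes were above 0 with a median of 0.18, though Atp5b was the only one called. These signs depend on the scaling: when each library was centred on its mean log level, the median of all genes moved by -0.10, the calls became 1 higher and 1 lower, and the median of the 62 genes became 0.0024.

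Atp5b had 1270, 1300, 1280 and 1230 CPM in KO thymus libraries, 989, 1040, 1170 and 1050 CPM in Het thymus libraries and 1080, 996 and 1090 CPM in WT thymus libraries. Every KO library stood above every Het and WT library. The log2 fold change was 0.27 ± 0.06 for KO over WT (adjusted p 0.00147) and 0.26 ± 0.06 for KO over Het (adjusted p 0.00105), and under mean log centring the first was 0.17 with an adjusted p of 0.0698. Sdhd, a membrane anchor of complex II, had 3.58, 3.84, 3.78 and 3.59 CPM in KO thymus libraries, 2.58, 2.43, 1.65 and 1.93 CPM in Het thymus libraries and 2.53, 2.32 and 2.24 CPM in WT thymus libraries. The KO libraries did not overlap the others, and the log2 fold change over WT was 0.65 ± 0.23 (adjusted p 0.0441). That call was close to the threshold, with an adjusted p of 0.0551 in DESeq2 and 0.178 with no filter on low counts, and it was lost without any single KO or WT thymus library (0.0603 to 0.134).

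Ndufab1, the mitochondrial acyl carrier protein of complex I, had 39.4, 34.2, 31.0 and 37.3 CPM in KO thymus libraries, 21.1, 28, 31.1 and 30.3 CPM in Het thymus libraries and 25.0, 21.9 and 27.8 CPM in WT thymus libraries. KO and WT were apart, while the lowest KO library lay just under the highest Het library. The log2 fold change over WT was 0.51 ± 0.12 (adjusted p 0.00214), and the gene shares exon bases with Gm44986 on the opposite strand. Cox7a2l had 49.4, 54.9, 62.9 and 50.4 CPM in KO thymus libraries, 63.3, 68.1, 69.0 and 73.0 CPM in Het thymus libraries and 74.7, 67.1 and 75.9 CPM in WT thymus libraries. It was lower in every KO library than in any Het or WT library, with a log2 fold change over WT of -0.41 ± 0.10 (adjusted p 0.00243). Proliferation genes moved in the same comparison, with 8 of 11 tested higher in KO thymus and summed CPM of 2480 to 2990 in KO against 1370 to 1790 in WT, and 4 of 5 memory markers were higher in KO thymus. Immature thymocyte markers summed to 253 to 291 CPM in KO thymus against 373 to 427 CPM in WT thymus. Of these markers Sox4 and Tox fell and Rag1 rose. The part of these differences was not tested.

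In naive spleen cells the few calls went the other way. KO and WT naive differed in 4 of the 62 genes (6.45%), against 18.2% of all tested genes, and all 4 fell: Ndufb11, Cox7a2l, Atp5h and Atp5g1. Lower calls made up 7.11% of all tested genes. The 62 genes had a median of -0.13, beside 0.00 over all tested genes, with 43 below 0, and 9 had an unadjusted p under 0.05. In this subset mean log centring, which moved the median of all genes by -0.11, raised the count to 12, all lower, while 2 genes were called without WT naive replicate 4, where Cox7a2l had an adjusted p of 0.0815.

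Ndufb11, an X-linked accessory subunit of complex I, had 10.3, 10.5, 11.3 and 10 CPM in KO naive libraries, 12.8, 13.2, 11.6 and 12.5 CPM in Het naive libraries and 12.6, 15.3, 14.5 and 12.9 CPM in WT naive libraries. KO lay below both other genotypes in every library, and the log2 fold change over WT was -0.40 ± 0.11 (adjusted p 0.00777). Ndufb11 shares exon bases with Rbm10 on the opposite strand, and its adjusted p was 0.0748 with no filter on low counts. Cox7a2l had 81.2, 80.3, 78.8 and 89.3 CPM in KO naive libraries, 106, 110, 100 and 97.3 CPM in Het naive libraries and 97.9, 95.2, 101 and 116 CPM in WT naive libraries. As in thymus, no KO library reached the Het or WT range, with a log2 fold change over WT of -0.31 ± 0.09 (adjusted p 0.0118).

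Atp5h, in the peripheral stalk of ATP synthase, had 6.67, 8.10, 6.34 and 5.80 CPM in KO naive libraries, 8.94, 8.22, 6.26 and 6.53 CPM in Het naive libraries and 8.01, 8.69, 8.90 and 9.73 CPM in WT naive libraries. KO and Het overlapped, and KO and WT overlapped in 1 library. The log2 fold change over WT was -0.41 ± 0.14 (adjusted p 0.0356), but the adjusted p was 0.152 with no filter on low counts and 0.0571 to 0.122 without any 1 of WT naive replicates 2, 3 and 4 or KO naive replicates 1, 3 and 4. Atp5g1 had 161, 118, 137 and 165 CPM in KO naive libraries, 191, 164, 170 and 152 CPM in Het naive libraries and 196, 156, 148 and 194 CPM in WT naive libraries. The 3 genotypes overlapped, and the log2 fold change over WT of -0.25 ± 0.09 (adjusted p 0.046) was not called with RLE scaling (0.0524), in DESeq2 (0.0531), or without any 1 of WT naive replicates 1 and 4 and KO naive replicates 2 and 3 (0.111 to 0.209). Memory markers were also higher in KO naive cells, at a summed median of 214 CPM in KO against 83.8 CPM in WT. The 5 naive T cell markers summed to 1440 to 1810 CPM in KO naive against 2000 to 2270 CPM in WT naive, and Lef1 and Ccr7 among them fell. The part of these marker differences was not tested.

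In memory cells the calls were scattered over complexes and mostly on low-count genes. KO and WT memory differed in 4 of the 62 genes, against 22.2% of all tested genes: Atp5g1, Ndufv3 and Ndufaf6 fell and Atp5s rose. Among all tested genes 12.8% rose and 9.32% fell. The median of the 62 genes was -0.03, beside 0.01 over all tested genes. Under mean log centring, which moved the median of all genes by -0.11, 9 genes were called, all lower. No gene was called when WT memory replicate 4 was left out, 1 was called without KO memory replicate 2 or without KO memory replicate 3, and 2 without WT memory replicate 3. Other markers moved with this comparison. Proliferation genes summed to 692 to 759 CPM in KO memory against 417 to 542 CPM in WT memory (6 of 11 tested rose), memory markers to 560 to 639 CPM in KO against 373 to 447 CPM in WT (2 of 5 rose), and B cell markers to 105 to 168 CPM in KO against 196 to 357 CPM in WT (1 of 11 fell), and their part was not tested.

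Atp5g1 had 181, 169, 168 and 160 CPM in KO memory libraries, 204, 198, 190 and 181 CPM in Het memory libraries and 205, 193, 211 and 214 CPM in WT memory libraries. KO lay below WT in every library and met the lowest Het library in 1, with a log2 fold change over WT of -0.28 ± 0.09 (adjusted p 0.019). Ndufaf6, an assembly factor of complex I, had 3.98, 3.47, 3.01 and 4.23 CPM in KO memory libraries, 7.38, 6.08, 5.30 and 3.97 CPM in Het memory libraries and 5.36, 4.25, 5.38 and 6.09 CPM in WT memory libraries. KO was below every WT library but overlapped Het, and the log2 fold change over WT was -0.53 ± 0.19 (adjusted p 0.0325). Ndufv3, an accessory subunit of complex I, had 1.13, 0.469, 0.752 and 1.13 CPM in KO memory libraries. The Het memory libraries had 1.24, 1.60, 1.36 and 1.67 CPM, and the WT memory libraries had 1.24, 1.48, 2.19 and 1.97 CPM. KO was below both other genotypes at these low levels, with a log2 fold change over WT of -0.96 ± 0.32 (adjusted p 0.0237). Atp5s had 0.952, 1.22, 1.44 and 1.41 CPM in KO memory libraries, 2.13, 0.800, 0.616 and 0.731 CPM in Het memory libraries and 0.777, 0.369, 0.658 and 0.358 CPM in WT memory libraries. KO stood above WT but inside the Het range, with a log2 fold change over WT of 1.17 ± 0.41 (adjusted p 0.0353). Atp5s was not called in DESeq2 (0.0572), under mean log centring (0.054), with no filter on low counts (0.0907) or without some single libraries (up to 0.112). Ndufv3 and Ndufaf6 were not called with no filter (0.0767 and 0.0865) or without some single libraries (up to 0.102 and 0.115). Atp5g1 was not called without WT memory replicate 4 (0.0556) or KO memory replicate 4 (0.0639).

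**Figure D4:**
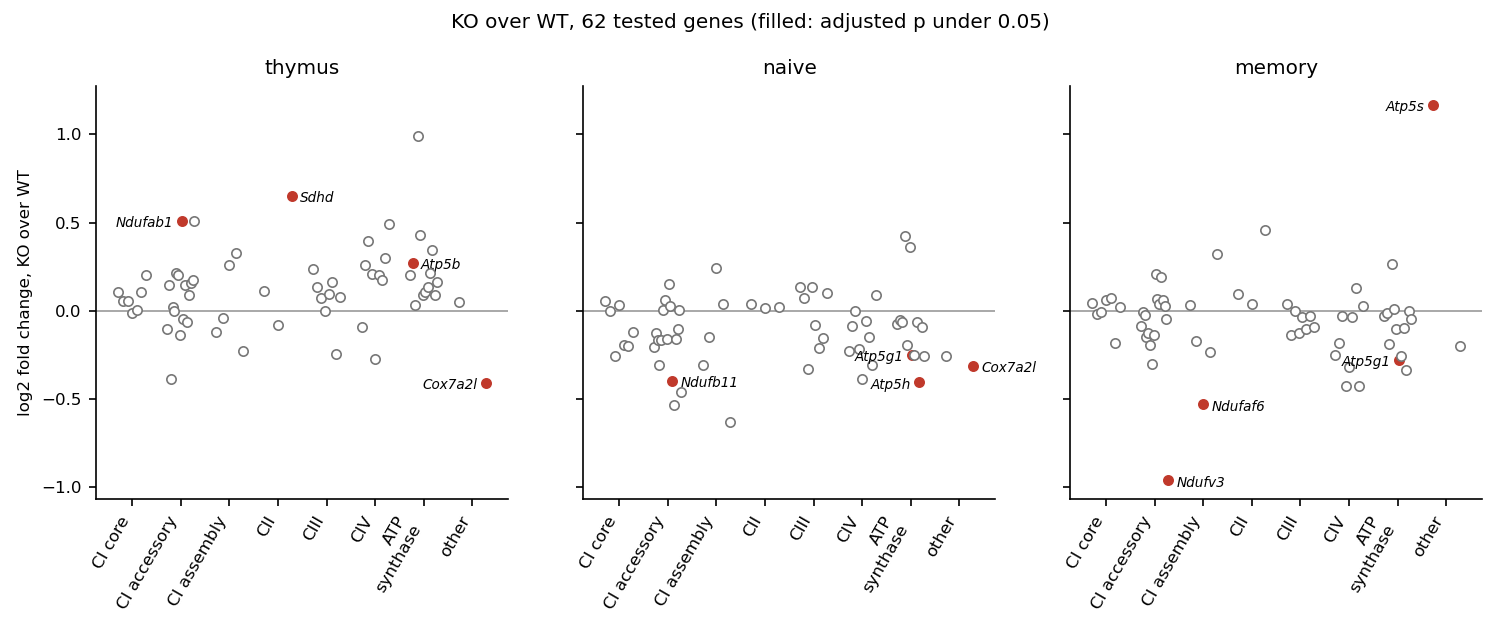
Log2 fold change of KO over WT for the 62 tested genes by complex, in thymus, naive and memory cells, with genes called at an adjusted p under 0.05 filled. Most thymus points lie above 0 (46 of 62), most naive points below (43 of 62), and 4 points are filled in each panel.

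The thymus and naive effects of the genotype were set against each other in the same model. The difference was called for 3 of the 62 genes, against 6.34% of all tested genes, and all 3 were more negative in naive cells, where 3.33% of all tested genes were. For Atp5b it was -0.33 ± 0.09 (adjusted p 0.0139), from 0.27 in thymus and -0.06 in naive cells. For Atp5h it was -0.75 ± 0.20 (adjusted p 0.0155), and for Ndufb11 -0.54 ± 0.16 (adjusted p 0.0302). The median difference over the 62 genes was -0.26, and 13 had an unadjusted p under 0.05. No gene was called with no filter on low counts, and 1 without WT thymus replicate 2. Ndufb11 was near the threshold, with an adjusted p of up to 0.0759 when single libraries were left out. For Cox7a2l, called lower in both subsets, the difference was 0.10 ± 0.14 (adjusted p 0.782) and was not called. Between memory and naive cells the genotype effect differed in 0 of the 62 genes in edgeR, with 3 at an unadjusted p under 0.05, and in 0 in DESeq2, against 1.79% of all tested genes (0.67% more positive and 1.12% more negative in memory cells).

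Between Het and WT no respiratory gene was called, which does not show that the genotypes are alike. They differed in 0 of the 62 genes in each subset in edgeR and in DESeq2, with 3, 0 and 2 genes at an unadjusted p under 0.05 in thymus, naive and memory cells. Of all tested genes 0% were called in thymus and naive cells and 0.00971% in memory cells. Against Het, KO thymus differed in 8 of the 62 genes, beside 19.1% of all tested genes, and 7 of the 8 rose. Of all tested genes 11.9% rose and 7.28% fell. Cox5a rose by 0.51 ± 0.10, Sdhd by 0.78 ± 0.22, Ndufab1 by 0.35 ± 0.11 and Sdha by 0.16 ± 0.05. The other 3 that rose were ATP synthase genes. These were Atp5b by 0.26 ± 0.06, Atp5a1, the alpha subunit, by 0.26 ± 0.08 and Atp5g3 by 0.28 ± 0.09. Cox7a2l fell by 0.33 ± 0.09. Cox5a had 49.0 to 51.3 CPM in KO thymus, 27.7 to 39.1 CPM in Het thymus and 38.8 to 44.4 CPM in WT thymus, so the KO libraries lay above both. The calls of Cox5a, Sdhd and Cox7a2l held under every alternative run, that of Atp5b was lost under mean log centring alone (0.0578), and the others were less stable. Sdha was lost in 8 settings, with an adjusted p of 0.327 with no filter on low counts, 0.26 with only the libraries compared and 0.518 under mean log centring, and of 0.0541 to 0.11 when left without Het thymus replicate 1 or 3 or KO thymus replicate 1, 2 or 3. Without Het thymus replicate 1, Atp5a1 was at 0.0773, Atp5g3 at 0.105 and Ndufab1 at 0.139. Under mean log centring the calls were 2 higher and 2 lower, with the median of all genes moved by -0.10, and 4 genes were called without Het thymus replicate 1. Proliferation genes moved here as well, with 8 of 11 tested higher in KO thymus and summed CPM of 2480 to 2990 in KO against 1670 to 2140 in Het, as did 4 of 5 memory markers, at 66.8 to 89.8 CPM in KO against 20.4 to 26.1 CPM in Het, and their part was not tested.

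In naive cells KO and Het differed in 2 of the 62 genes, against 16.9% of all tested genes, and both fell, as did 6.5% of all tested genes. Ndufv1 had 78.2, 76.3, 76.1 and 80.6 CPM in KO naive libraries, against 96.9, 89.5, 92.7 and 95.4 CPM in Het naive libraries. The libraries did not overlap, and the log2 fold change was -0.27 ± 0.07 (adjusted p 0.00865). Cox7a2l fell by 0.32 ± 0.09 (adjusted p 0.00892). In memory cells 1 of the 62 genes was called between KO and Het, Ndufaf6 at -0.64 ± 0.19 (adjusted p 0.0102), against 20.2% of all tested genes called and 8.59% lower, and it was not called without Het memory replicate 1. Without Het memory replicate 3 or KO memory replicate 4, 2 genes were called, and without KO naive replicate 4 the naive count was 4. The comparisons of KO with Het and with WT share the KO libraries.

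Seen over all 9 groups, KO thymus had the highest mean for 26 of the 62 genes and KO naive the lowest for 27. The naive mean was below the thymus mean for 52 genes in KO, 45 in Het and 39 in WT. The memory mean was above the naive mean for 52 genes in KO, 47 in Het and 48 in WT. The order of the group means was not counted over all tested genes. These counts therefore do not tell the respiratory genes from other genes. Summed over the set, levels were 3951 ± 48.6, 2971 ± 128 and 3222 ± 97.8 CPM in KO thymus, naive and memory cells (SD, n = 4 each). Het cells had 3532 ± 204, 3128 ± 113 and 3251 ± 107 CPM in the same order (SD, n = 4 each). WT cells had 3531 ± 161 CPM in thymus (SD, n = 3) and 3133 ± 79.8 and 3329 ± 152 CPM in naive and memory cells (SD, n = 4 each). By these scaled means the KO thymus sum stood above the others, and Atp5b alone made up 1272 CPM of it. The KO naive mean was the lowest, but this depends on the scaling. As a share of all raw counts, the set took 0.297% to 0.316% in KO naive libraries. The shares were 0.300% to 0.318% in Het naive libraries and 0.303% to 0.316% in WT naive libraries, so the 3 genotypes overlapped.

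Some genes hardly varied. The highest and lowest of the 9 group means differed 1.18-fold for Ndufs1, 1.19-fold for Ndufa10 and 1.21-fold for Sdha, all well counted. Ndufs1 had a lowest library value of 166 CPM and a highest of 228 CPM. It shares exon bases with Eef1b2 on the opposite strand. Among well counted genes the widest ranges were 1.90-fold for Cox7a2l, 1.81-fold for Atp5g3 and 1.80-fold for Atp5g1. Cox8a spanned 3.95-fold, at 7.43 counts per library.

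Around the respiratory chain, genotype calls were of both signs, beside 18.6%, 18.2% and 22.2% of all tested genes called between KO and WT in thymus, naive and memory cells. In the list of tricarboxylic acid cycle and pyruvate dehydrogenase genes, 2 rose and 1 fell of 17 tested in thymus, 1 rose and 1 fell in naive cells and 0 rose and 2 fell in memory cells. Fh1, fumarase, rose by 0.43 and Idh3a by 0.29 on the log2 scale in KO thymus, while Pdha1, of pyruvate dehydrogenase, fell by 0.34. In the import and membrane list of 20 tested genes, 2 rose in thymus, 3 fell in naive cells, and 1 rose and 3 fell in memory cells. Of 22 tested assembly factors outside the naming rule, 1 was called in thymus, 0 in naive cells (edgeR and DESeq2, with 1 at an unadjusted p under 0.05 in edgeR), and 1 in memory cells. Of 13 tested genes for cytochrome c and coenzyme Q, 1 fell in thymus, 1 fell in memory cells and 0 were called in naive cells (edgeR and DESeq2, with 2 at an unadjusted p under 0.05 in edgeR). Among 16 tested regulators of mitochondrial biogenesis, 2 rose and 0 fell in KO thymus, 2 rose and 3 fell in KO naive cells and 2 rose and 1 fell in KO memory cells. Polg, the mitochondrial DNA polymerase, rose in all 3 subsets, while Twnk, Gabpb1 and Pprc1 fell in naive cells and Nrf1 fell in memory cells. The other gene that rose in all 3, singled out after its values were seen, was Ppargc1a, the coactivator PGC-1alpha that works with NRF1. It was at 0.939 to 3.98 CPM in KO thymus against 0 to 0.533 CPM in WT thymus, 6.25 to 11.6 CPM in KO naive against 0.217 to 2.09 CPM in WT naive, and 8.15 to 13.9 CPM in KO memory against 0.110 to 0.986 CPM in WT memory. KO and WT did not overlap in any subset, with adjusted p of 0.000589, 0.000265 and 2.25e-07. The mitochondrially encoded subunits gave 0 calls between KO and WT in any subset, in edgeR or DESeq2, and 0 at an unadjusted p under 0.05. On the low counts given above, this does not show that they were unchanged.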

How the data were processed

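The data were RNA-seq libraries of sorted mouse CD8 T cells, 35 in 9 groups of genotype and subset. The authors deposited a table of raw counts per Ensembl gene. Per the labels' protocols the libraries were strand-specific poly-A libraries read as single reads. TopHat2 2.1.0, TopHat, HTSeq 0.9.1, GRCm38 and mm10 are named in the submitters' processing notes; the annotation release and strand setting of the counting are not given in the sources used here. Gene names and exon lengths came from GENCODE M21, which named 52489 of the IDs and not 147. If strand was ignored, the 29 genes that share exon bases with a gene on the opposite strand hold mixed reads, and 12 annotated pseudogenes are named after members of the set. On the same strand, 5 genes of the set share exon bases with another gene.

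From the deposited counts, genes were filtered with filterByExpr, scaled by TMM (factors 0.927 to 1.07) and fitted in edgeR 4.0.16 under R 4.3.3, with all 35 libraries, 9 group means, 26 residual degrees of freedom and robust quasi-likelihood F tests. P-values were adjusted by Benjamini-Hochberg over all 10296 genes tested. SE is the log2 fold change divided by the square root of F. CPM use the library size over tested genes. Steps were tested on simulated data. No pair of replicates agreed within sampling noise (lowest chi-square per gene 3.842 over 51 pairs). Alternatives were RLE scaling, no filter, a stricter filter (4 or more libraries at a CPM of 1 or above), only the libraries compared, DESeq2 1.42.0, a replicate block and leaving out each library; a sex term (24 male and 11 female libraries) and mean log centring were added after seeing the data.

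Genes named are, in each comparison, up to 8 called with the lowest adjusted p plus 17 fixed key subunits, and for levels the 5 highest and 5 lowest per length and the paralogues; any other was chosen after its values were seen. Of all the genes this rule picks, 1 is left out of the text and not reported here. The set and the lists were chosen with earlier results of these data known. Same-numbered replicates deviated together, at a correlation over 0.1 in every pair, only for KO against Het in naive cells (0.144 to 0.262) and memory against naive in WT (0.206 to 0.31). This pairing comes from the data, as the labels name no shared source. Sex, read from the counts, also followed the replicate number: in KO and Het only replicate 3 was female in each subset. In WT, replicates 2 and 3 were female in naive and memory cells, but only replicate 2 in thymus. The same mice may thus have given several subsets, and the main fit took no account of such pairing.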

Additional observations from a re-analysis of the deposited data

Results flagged for a closer look

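Among 24 genes shown, 192 groups of 4 libraries were searched for a library far from the other 3, and 7 were found. Chance gives about 1 in 20, and 7 of 192 is not above that rate. The 7 are listed without being read as faulty libraries. Ndufv1 was at 125 CPM in KO thymus replicate 4, against 100 to 103 CPM in the other KO thymus libraries. Ndufa6 was at 60.1 CPM in Het thymus replicate 4, against 32.6 to 35.7 CPM in the others of that group. Ndufv1 was at 82.1 CPM in Het memory replicate 3, below the other 3 at 95.9 to 97.7 CPM. In Het memory replicate 1, Ndufb9 was at 36.9 CPM, above 27.9 to 29.3 CPM, and Atp5s at 2.13 CPM, above 0.616 to 0.8 CPM. In WT naive cells, Cox4i1 was at 53.7 CPM in replicate 1, above 42.9 to 44.5 CPM, and Ndufs4 at 54.7 CPM in replicate 2, above 48.6 to 49.4 CPM.

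The effect of KO against WT differed between naive and thymic cells by a test of the difference for 3 genes. The log2 difference, naive minus thymus, was -0.33 for Atp5b, -0.75 for Atp5h and -0.54 for Ndufb11.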

How the results depend on the processing

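The counts of genes called among the 62 were recomputed under each alternative. Mean log centring gave 2, 12 and 9 calls for KO against WT in thymus, naive and memory cells, 4, 9 and 8 for KO against Het in the same order, and 2 each for memory against naive in KO and WT. With no filter on low counts, KO against WT gave 2 in naive and 1 in memory cells, and the difference of the genotype effect between naive and thymus gave 0. With only the libraries compared, KO against WT naive gave 2, KO against Het thymus 4 and KO against Het memory 2. Leaving out 1 library at a time gave 3 to 5 calls for KO against WT thymus, 2 to 5 for naive (2 without WT naive replicate 4) and 0 to 4 for memory. It gave 4 to 10 for KO against Het thymus, 2 to 4 for naive and 0 to 2 for memory. It gave 1 to 4 for memory against naive in KO (1 without KO naive replicate 2 or KO memory replicate 3) and 1 to 6 in WT (1 without WT memory replicate 3). Naive against thymus gave 26 to 31 in KO and 9 to 13 in WT, and the naive and thymus difference gave 1 to 4. Het against WT and the memory and naive difference stayed at 0 throughout. The replicate block gave 5, 6 and 5 calls for KO against WT in thymus, naive and memory cells and 2 for KO against Het naive and 6 for memory against naive in WT, where the pairing held. For single called genes, 1075 results kept direction and call, 177 lost the call and 0 reversed. The cause was not tested. Low counts kept 32 of the 94 genes out of the tests, so differences in them could not be detected here. Why these genes had low counts was not tested.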
